A study of Mus musculus with 27 samples.

Results

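The 5 h blast culture comparison covers 4 of the 27 arrays of the series, chosen by their labels alone: 2 untreated arrays and 2 arrays of cells given doxycycline (DOX) for 5 h. All 4 samples came from a mouse embryonic stem cell (ESC) line, the dnFOS line, that carries a Flag-tagged dominant-negative FOS in a DOX-inducible cassette at the Hprt locus of A2lox cells. ESCs were differentiated as embryoid bodies for 3.75 days, FLK1+ cells were purified on magnetic columns, and these hemangioblast-stage cells were kept in blast culture with IL-6 and VEGF for 5 h, either untreated or with 1 µg/ml DOX from the start. Complete cultures were taken without a further sort. The line was picked as drug-resistant clones and had been grown on mouse embryonic feeder cells, and no array holds DOX-treated cells that lack the cassette. A response to DOX itself therefore cannot be told apart from one to dnFOS on these arrays. Further arrays hold freshly purified FLK1+ cells (2 arrays) and the same culture after 24 h (2 untreated and 2 DOX arrays), and are used here for comparison only. The labels do not say whether replicates were separate differentiations, so that p-values measure the spread between these samples, which may be technical. The number of arrays limits the precision of every value, and fewer cells of a type cannot be told apart from less RNA per cell.

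The slide layout bears on every value that follows. Untreated replicate 1 was the only array of its slide and of its scan day. DOX replicate 1 lay on a slide of 3 arrays together with the replicate 1 arrays of the 24 h culture. Untreated replicate 2 and DOX replicate 2 lay side by side on a slide of 8 arrays with both FLK1+ arrays. The replicate 2 arrays are therefore the one place where DOX and untreated 5 h cells were measured on the same slide, and their difference is given beside many values as the within-slide difference, a value without a test. At 24 h, in contrast, each slide held 1 untreated and 1 DOX array.

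AP-1 is a family of dimeric basic leucine zipper transcription factors built from JUN, FOS, ATF and MAF proteins, which bind the TPA response element in DNA and switch on genes after growth factor, cytokine and stress signals. JUN proteins bind DNA as homodimers or with partners, whereas FOS proteins need a JUN partner. dnFOS takes up JUN proteins through its leucine zipper and covers their DNA-binding region with an acidic extension. It therefore acts on AP-1 protein at DNA, and the arrays measure the messenger RNA of the family and of possible target genes, not that protein activity. In early blood development FLK1+ hemangioblast cells can form vascular smooth muscle, endothelium and, through hemogenic endothelium, blood. TEAD factors, which with their co-activators YAP and TAZ form the end of the Hippo pathway, share many enhancers with AP-1 and act on genes of adhesion, matrix and the cytoskeleton.

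Promoter sequences are shown for 4 TEAD target genes whose values are described below, since their letters hold the motif of one or the other family. In the sequences, which end at the base before the annotated RefSeq start (build GRCm38.p6) and run 5′ to 3′ on the strand of the gene, capitals mark either the TEAD motif GGAATG on either strand or the AP-1 motif TGANTCA, which reads the same on both strands. Ankrd1 lies at chr19:36119845-36120094 on the minus strand and holds GGAATG 210 and 123 bases upstream of the start. Ccn1, also on the minus strand, lies at chr3:145649986-145650235 and has the motif 103 bases upstream as CATTCC. The Axl stretch at chr7:25788734-25788983, minus strand, carries GGAATG 233 bases upstream. F3 at chr3:121723287-121723536, plus strand, holds no GGAATG and has TGANTCA 146 and 135 bases upstream.
Ankrd1: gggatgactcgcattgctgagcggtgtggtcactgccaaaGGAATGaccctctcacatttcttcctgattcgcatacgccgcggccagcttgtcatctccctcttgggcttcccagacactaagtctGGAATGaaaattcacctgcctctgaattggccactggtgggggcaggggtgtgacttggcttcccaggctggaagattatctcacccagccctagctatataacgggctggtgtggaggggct
Ccn1: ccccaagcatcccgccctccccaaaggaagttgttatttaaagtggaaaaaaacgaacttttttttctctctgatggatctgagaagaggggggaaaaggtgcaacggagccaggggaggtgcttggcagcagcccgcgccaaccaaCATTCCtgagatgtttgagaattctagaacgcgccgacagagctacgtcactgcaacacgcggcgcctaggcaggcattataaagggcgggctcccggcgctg
Axl: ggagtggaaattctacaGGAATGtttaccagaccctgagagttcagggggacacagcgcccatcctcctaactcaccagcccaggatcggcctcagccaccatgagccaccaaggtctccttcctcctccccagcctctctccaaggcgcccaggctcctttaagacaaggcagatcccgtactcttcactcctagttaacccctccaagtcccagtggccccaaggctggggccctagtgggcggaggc
F3: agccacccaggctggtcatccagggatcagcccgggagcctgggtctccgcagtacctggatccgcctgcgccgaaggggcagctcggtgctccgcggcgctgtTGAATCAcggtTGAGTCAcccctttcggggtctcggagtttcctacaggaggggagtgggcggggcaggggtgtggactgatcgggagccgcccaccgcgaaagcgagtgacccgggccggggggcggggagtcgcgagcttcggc
Over the 250 bases upstream, 7 of 14 tested TEAD and YAP target genes with a promoter in the table held GGAATG, against 14.4% of all 27025 gene symbols. The TEAD and Hippo factor genes held it as often, in 7 of 14. TGANTCA was found for 1 of the 14 target genes and for 0 of 12 vascular genes, against 7.82% of all symbols. A match is a description of the letters in this window, and enhancers further away were not searched.

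Levels are given as log2 of the processed spot signal after subtracting each array's 75th percentile, so that 0 is the level of the 75th percentile. The 75th percentile of the signal was 371 and 639 on untreated arrays 1 and 2 and 339 and 507 on DOX arrays 1 and 2, and 54.6%, 64.3%, 65.3% and 58.2% of probes were well above background, in the same order. Across genes, levels on both arrays of the shared slide correlated with r = 0.988, replicates of a treatment with r = 0.957 (untreated) and 0.962 (DOX), and the replicate 1 arrays with r = 0.912. The 2 arrays that lay on the same slide were thus more alike than the replicates of either treatment. Among 23786 genes tested at 5 h, 1280 were at least 4-fold lower on untreated replicate 1 than on each of the other 3 arrays. The same count was 8 for untreated replicate 2, 36 for DOX replicate 1 and 4 for DOX replicate 2. DOX replicate 1 was at least 4-fold above the other 3 arrays for 576 genes, against 83 for DOX replicate 2, 14 for untreated replicate 2 and 4 for untreated replicate 1.

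Differences between DOX and untreated cells ran with the level of the gene. Of genes whose mean level was below -2, 7545 in number, the median log2 difference (DOX minus untreated) was 0.50, and within the shared slide it was 0.04. The 4412 genes between 0 and 2 had a median of -0.22, and of -0.01 within the slide. For the 6955 genes above 2 the medians were -0.11 and 0.06. A gene could enter the test through the DOX arrays alone, which bears on the weakest genes. Over the 4637 genes of the lowest band that were above background on all 4 arrays, a restriction chosen after seeing the data, the median was 0.32, and within the slide 0.02. Over all tested genes the median was -0.04, with 47.2% of genes above 0 and 52.8% below.

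**Figure D1:**
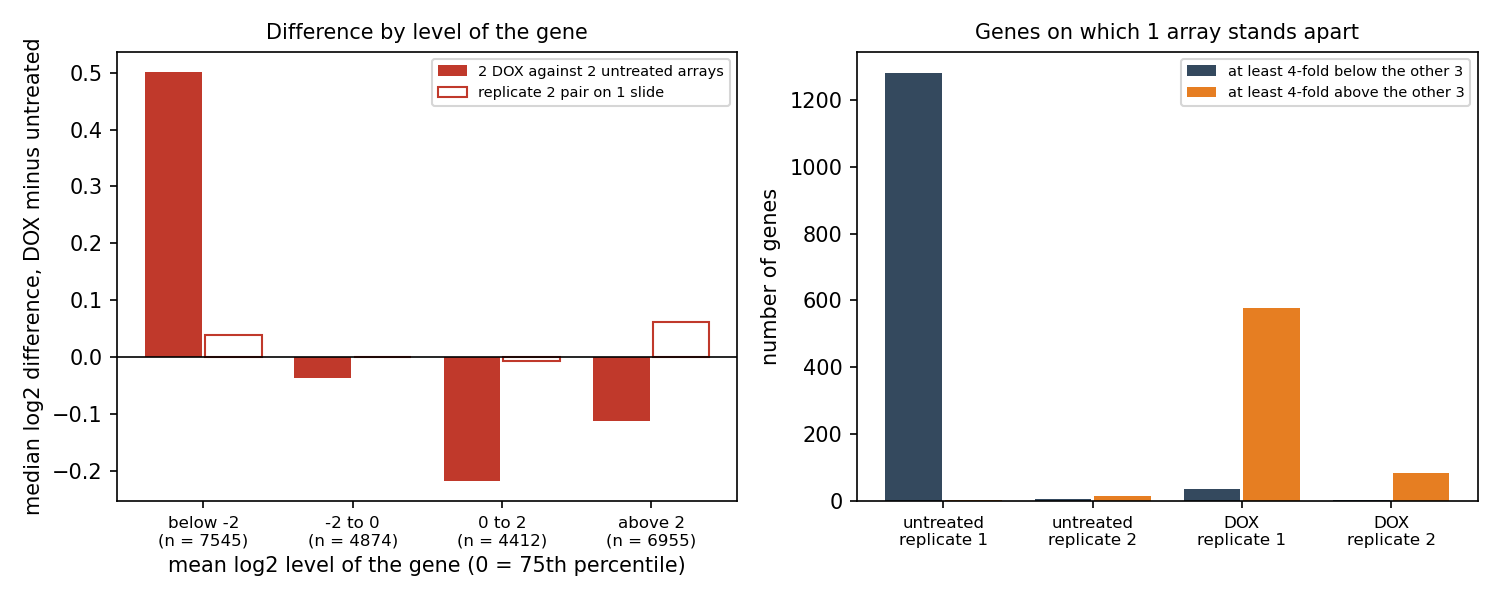
Left, median log2 difference between DOX and untreated arrays at 5 h for genes grouped by their mean level (filled bars, 4 arrays; open bars, the replicate 2 arrays on their shared slide); right, number of genes on which a single array lay at least 4-fold below (dark) or above (orange) each of the other 3. The weakest genes had a median of 0.50 over the 4 arrays and 0.04 within the slide, and untreated replicate 1 was the low array for 1280 genes.

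DOX for 5 h left few differences past the spread between arrays. A gene was called at an adjusted p under 0.05 (limma with Benjamini-Hochberg adjustment) and at least a 2-fold change, and 1 gene was called higher (0.0042% of 23786) and 0 lower (0.0%, with 45 at an unadjusted p). The called transcript has no gene symbol here (probe A_55_P2163538). Its levels were -6.68 and -5.63 on the untreated arrays, where it was not well above background, and -1.88 and -0.66 on the DOX arrays, so that it was at least 15.2-fold higher with DOX (limma log2 fold change 4.88, SE 0.70, adjusted p = 0.0371). The within-slide difference was 4.97. The log2 fold change was 1.73 with normexp background correction and 1.94 in the authors' processed values, both far below the bound, so that the size of the change depends on the processing. It entered the test only because it was above background on the DOX arrays, and with detection required in both groups it was not tested and 0 genes were called. The adjusted p lay above 0.05 in 6 alternatives, among them 0.545 with a slide block and 0.198 without untreated replicate 1, over a range of 0.00245 to 1. Its gene could not be named, and nothing is said here of its function.

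With an unadjusted p below 0.05 and a 2-fold difference, 1217 genes were higher with DOX (5.12%) and 45 lower (0.189%). Of the 1217, 892 had a mean level below -2 and 784 were not above background on every untreated array. The split moved with the scaling, from 1217 higher and 45 lower to 600 and 165 after quantile normalization and 604 and 369 after scaling to the median, and with a slide block it was 103 and 61. Without untreated replicate 1, 0.411% of genes were higher and 0.568% lower, and without DOX replicate 2 they were 11.7% and 0.576%. Within the shared slide 2.46% of all genes were at least 2-fold higher, 282 of the 1217 among them, and 0.811% at least 2-fold lower, 31 of the 45 among them. Both arrays of that slide had a part in choosing the 1217 and the 45, so that these counts are a description only. Single arrays decided the number of calls. Without untreated replicate 1 the counts were 0 higher and 6 lower, without untreated replicate 2 they were 72 and 2, without DOX replicate 1 they were 36 and 0, and without DOX replicate 2 they were 57 and 0. At the median SE of 0.67, the 95% interval of a log2 difference reaches 1.42 to either side, which is more than 2-fold. At that SE a smaller difference could not be told from 0 even before adjustment. Far larger ones were not called after it, such as Disp2 (-4.45) and Olfr782 (5.50), each with a limma adjusted p of 0.923. Few calls therefore do not mean that few genes changed 2-fold.

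The cassette has no probe of its own, and Hprt, the purine salvage enzyme gene at whose locus it sits, was read first. Levels of Hprt were 2.61 and 1.95 on the untreated arrays and 3.63 and 3.74 on the DOX arrays. Each DOX array was above each untreated array, with a log2 fold change of 1.40 (SE 0.56, limma adjusted p = 0.923) and a within-slide difference of 1.79. Freshly purified FLK1+ cells had levels of 1.82 and 2.15. After 24 h the log2 fold change of Hprt was 3.63 (SE 0.56, limma adjusted p = 0.0457). The difference of 2.23 (SE 0.79) between both times had an unadjusted p of 0.0113 and an adjusted p of 1.00 over all genes in limma.

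Lists were drawn up by pathway and cell type with earlier results of these data known, so that their shares are a description only. They held 433 distinct tested genes. Of these 2 were higher by that unadjusted measure (Elane and Gp1bb) and 0 lower, against 5.12% and 0.189% of all genes. The lowest adjusted p among them was 0.923. On both DOX arrays below both untreated arrays were 106 of the 433 (24.5%), against 16.4% of all tested genes and 19.2% of those above the 75th percentile. Both DOX arrays were above both untreated arrays for 38 (8.78%), against 18.6% and 8.91%. In the descriptions of single genes that follow, no adjusted p passed the threshold unless one is given.

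Transcripts of the AP-1 family had a median difference below that of all genes, and the members that encode the FOS and JUN proteins did not move together. Of 22 tested members, 15 were lower and 7 higher with DOX, against 52.8% and 47.2% of all genes. The median log2 difference was -0.25, against -0.04 over all genes, and -0.07 within the shared slide. In 8 of the members each DOX array was below each untreated array (16.4% of all genes did), and in 1, the small MAF gene Mafg, above (18.6%). The Mafg difference was 0.10, and another of its probes gave -0.58. Fos, the partner of JUN that growth factors switch on within minutes, had levels of 1.22 and 1.99 on the untreated and 1.1 and 1.85 on the DOX arrays. DOX replicate 2 lay close to untreated replicate 2 on the same slide. Fosb was at -2.13 and -0.15 without and at -1.40 and -0.49 with DOX, and the groups overlapped.

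Both FOS-like genes were lower on each DOX array. Fosl2, which encodes FRA2, had levels of 3.95 and 3.55 untreated and 2.80 and 3.26 with DOX, a log2 difference of -0.72 (SE 0.44). Fosl1, which encodes FRA1, was at 0.19 and 0.04 untreated and at -0.72 and -0.19 with DOX, a difference of -0.57 (SE 0.82). FLK1+ cells had Fosl1 levels of -3.81 and -4.94, below all 4 arrays of the 5 h culture. The transcript was thus higher in culture with and without DOX. A second probe of Fosl2 gave a difference of 0.32, in the opposite direction.

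The JUN genes differed less or the other way. Jun, which encodes the central partner of the family, was at 5.40 and 4.83 untreated and at 6.41 and 5.30 with DOX, a log2 difference of 0.74 (SE 0.55) and of 0.47 within the slide. The groups overlapped, since DOX replicate 2 lay below untreated replicate 1. Jund, broadly expressed in resting cells, had levels of 5.27 and 4.93 untreated and 6.17 and 4.97 with DOX, and the one high value was DOX replicate 1. Junb was at -0.23 and -0.45 untreated and at -0.49 and -0.47 with DOX, a difference of -0.14, so that each DOX array was lower by little.

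Among the partners outside these families, the stress-induced repressor gene Atf3 showed the largest negative difference of the list. Its levels were 3.88 and 3.33 on the untreated arrays and 1.98 and 2.81 on the DOX arrays. Both DOX arrays lay below, with a log2 difference of -1.21 (SE 0.70) and of -0.52 within the slide. Mafk was at 1.45 and 1.48 untreated and at 0.58 and 1.19 with DOX (-0.57, SE 0.42). Atf2, Jdp2 and Maf also had both DOX arrays below, with differences between -0.69 and -0.31. Batf2 had the highest difference of the list (1.32, SE 1.16), and it came from DOX replicate 1 at -0.65 against -3.74, -3.18 and -3.62 on the other arrays.

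**Figure D2:**
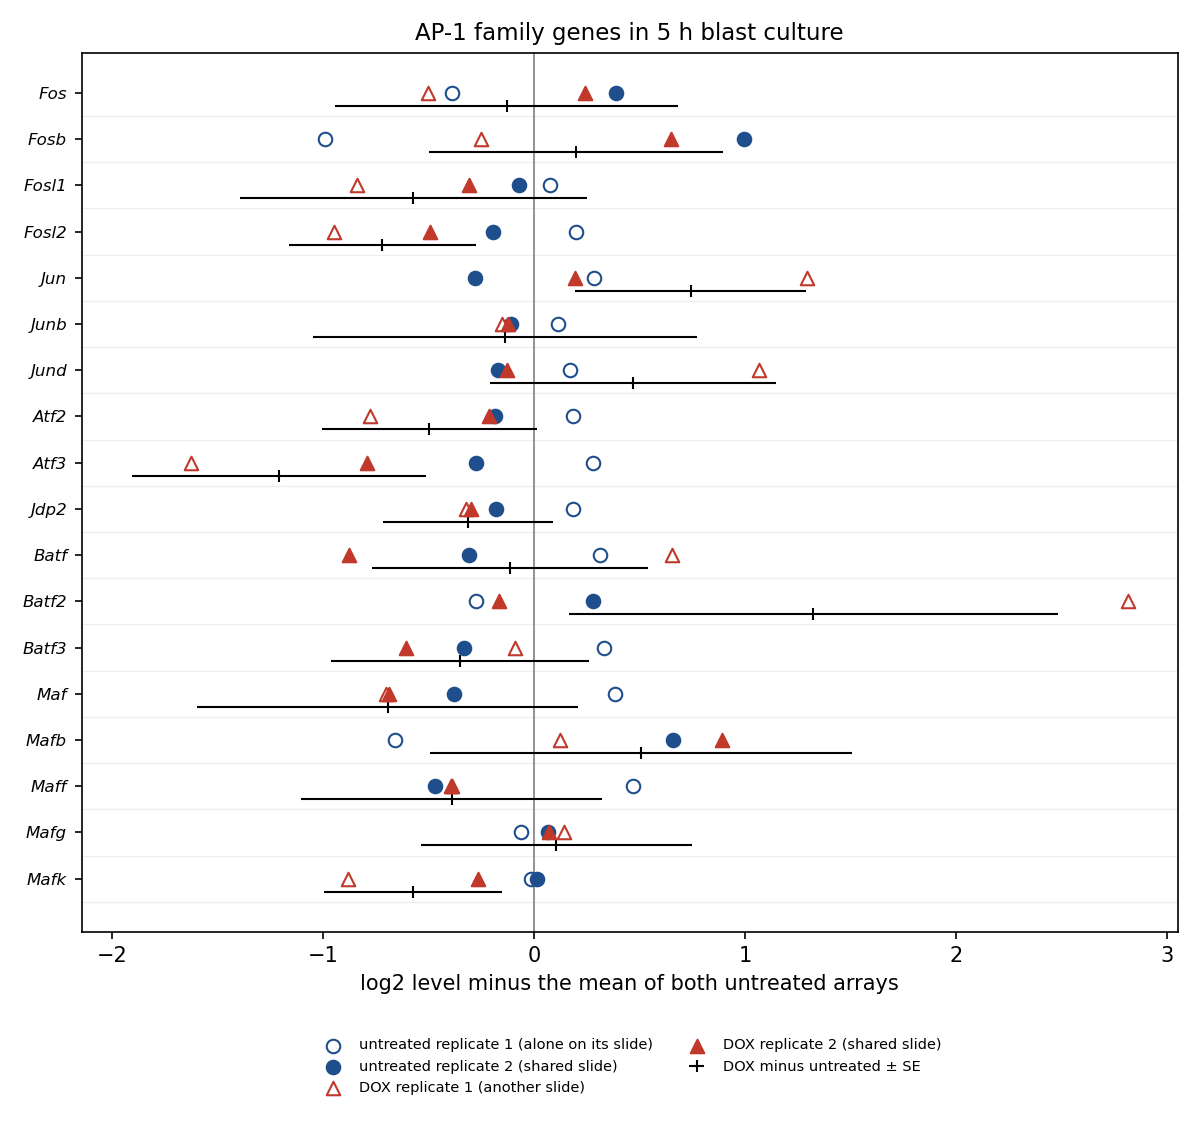
Levels of 18 AP-1 family genes on the 4 arrays of the 5 h culture, each as the log2 level minus the mean of both untreated arrays of that gene (circles, untreated; triangles, DOX; open symbols, replicate 1; filled symbols, replicate 2 on the shared slide; black tick and line, limma difference ± SE). Atf3 and Fosl2 had both DOX arrays below both untreated arrays, while for Jun 1 triangle lay above both circles and 1 between them.

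Immediate early genes, which cells switch on within the first hour of growth factor signalling, and the feedback inhibitors of the same pathways gave mostly small differences. The largest was 2.58 for Zfp36, which was low on untreated replicate 1 alone. Of 35 tested, 32 were lower with DOX (52.8% of all genes), with a median of -0.29 and of -0.04 within the slide, where 20 were lower (44.0% of all genes). In 10 each DOX array was below each untreated array (16.4% of all genes). Egr1, the early zinc finger gene of the serum response, was at 1.83 and 1.93 untreated and at 1.57 and 2.05 with DOX, and the groups overlapped. Klf6 was at 7.12 and 6.64 untreated and at 6.12 and 6.46 with DOX (-0.59, SE 0.40). Plaur, which encodes the urokinase receptor, was at 4.98 and 4.48 untreated and at 4.16 and 4.09 with DOX, a log2 difference of -0.60 (SE 0.60). At 24 h its difference was -2.01 (SE 0.60, unadjusted p = 0.0034). Without untreated replicate 1 the median of the list was -0.11, and without untreated replicate 2, when the untreated side is the array alone on its slide, it was -0.65.

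Vascular genes made up the list in which the DOX arrays lay below the untreated arrays most often. These 21 genes are a chosen part of those that the study names for AP-1 binding, lower levels with dnFOS or vascular development. The list also holds cell cycle inhibitor genes, Cdkn2b among them, which the study ties to AP-1 binding and proliferation. Many of the 21 were chosen on arrays of this series, so that the list is not independent evidence of a direction. Of 21 tested genes 19 were lower with DOX, and in 14 each DOX array was below each untreated array, against 16.4% of all genes and 19.2% of genes above the 75th percentile. In 0 were both above. The median log2 difference was -0.46 over the 4 arrays and -0.20 within the slide, where 18 of 21 were lower, against 44.0% of all genes. It was -0.38 without untreated replicate 1, -0.69 without untreated replicate 2, -0.34 without DOX replicate 1 and -0.57 without DOX replicate 2. Within the slide 0 of the 21 were 2-fold lower, and the lowest unadjusted p was 0.15. Feeder cell markers, given further on, were also lower in sum on each DOX array, and their part was not tested.

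Of the ligand genes of the list, Bmp2, a ligand of the BMP pathway that acts in mesoderm and heart, was at 5.11 and 4.2 untreated and at 3.42 and 3.95 with DOX, a log2 difference of -0.97 (SE 0.74) and of -0.26 within the slide. Vegfa, the ligand of FLK1, was at 2.76 and 2.16 untreated and at 1.51 and 1.77 with DOX (-0.82, SE 0.83, within the slide -0.39), and its second probe differed by -0.27. Hbegf, an EGF receptor ligand, had a difference of -0.62 (within the slide -0.09) that rested on DOX replicate 1 at 2.06, against 3.21, 3.35 and 3.25 on the other 3 arrays. Tgfb2 was at 5.26 and 5.22 untreated and at 4.76 and 4.90 with DOX. In this gene the untreated arrays were nearly equal and both DOX arrays were lower by at least 0.32.

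Wt1, a transcription factor gene of the heart and blood vessel lining, was the lowest of the list. Levels were 1.69 and 0.77 untreated and -0.20 and 0.48 with DOX, a log2 difference of -1.09 (SE 0.73) and of -0.29 within the slide. The receptor tyrosine kinase gene Axl was at 2.09 and 2.04 untreated and at 1.08 and 1.66 with DOX (-0.69, SE 0.72). In Axl the untreated arrays, although on different slides, were nearly equal, and DOX replicate 1 was the lowest of the 4.

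Nrp1, a co-receptor of VEGF, had a difference of 0.06, and Cdkn2b, a cell cycle inhibitor gene, of 0.39, and in both the replicate 1 arrays were lower than the replicate 2 arrays. The second probe of Cdkn2b differed by -0.27.

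Target genes of TEAD and YAP had a similar picture, with 3 genes (Axl, Ccn2 and Tgfb2) shared by both lists. Of 19 tested, 16 were lower with DOX (52.8% of all genes) and 11 had both DOX arrays below both untreated arrays (16.4% of all genes, 19.2% of those above the 75th percentile). In 0 were both above. The median was -0.42, and -0.18 within the slide, where 17 of 19 were lower (44.0% of all genes). It was -0.20 without untreated replicate 1 and -0.60 without untreated replicate 2. Ankrd1, a muscle ankyrin repeat gene and a common readout of YAP, whose promoter letters are printed above, had the largest difference. Its levels were -2.51 and -3.24 in FLK1+ cells, 4.41 and 3.88 in untreated 5 h culture, and 2.17 and 2.98 with DOX. All 4 arrays of the culture thus lay far above FLK1+ cells, and each DOX array was below each untreated array (log2 difference -1.57, SE 1.45, within the slide -0.91). The SE is that of all 27 arrays together.

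The matricellular protein genes Ccn1 and Ccn2, which respond to both YAP and serum, were at high levels on every array. Ccn2 was at 6.38 and 4.94 untreated and at 4.93 and 4.69 with DOX (-0.85, SE 1.21, within the slide -0.25), and without untreated replicate 1, the one array that stood off, the difference was -0.13. Ccn1 was at 6.17 and 5.57 untreated and at 5.47 on both DOX arrays (-0.40, SE 0.81). F3, which encodes tissue factor and whose printed promoter holds both TGANTCA matches, was at 3.19 and 2.61 untreated and at 2.15 and 1.96 with DOX, a log2 difference of -0.84 (SE 1.06) and of -0.65 within the slide.

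The TEAD and Hippo factors themselves had a median of -0.19 over 17 genes and of -0.07 within the slide. Tead1 was at 5.12 and 3.80 untreated and at 3.69 and 3.63 with DOX (-0.80, SE 0.71, within the slide -0.16), with untreated replicate 1 alone at the high level and a difference of -0.14 without it. Tead4 was at 2.75 and 1.73 untreated and at 1.89 and 1.67 with DOX, and its groups overlapped. The co-activator gene Yap1 had a difference of -0.06, and Wwtr1, which encodes TAZ, of -0.31.

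**Figure D3:**
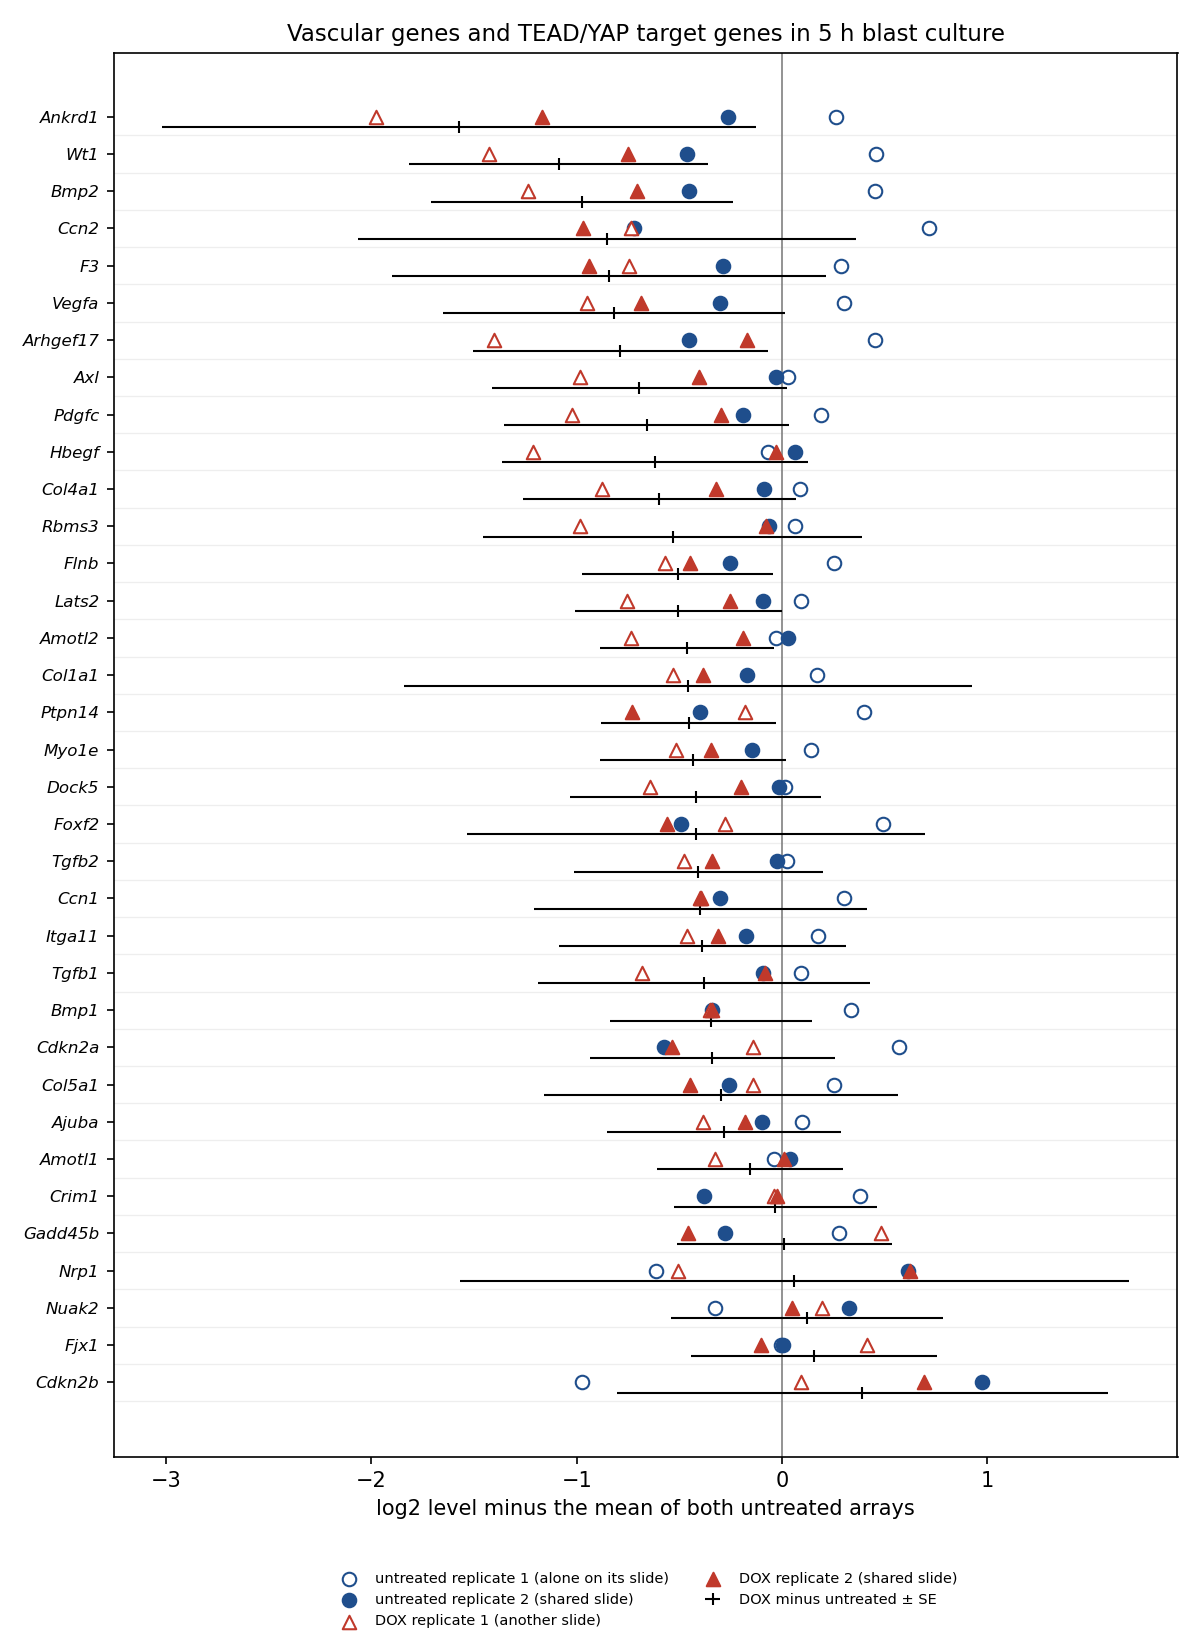
Levels of 35 vascular and TEAD/YAP target genes on the 4 arrays of the 5 h culture, as the log2 level minus the mean of both untreated arrays of the gene, ordered by the limma difference (symbols as in the plot of AP-1 genes; black tick and line, difference ± SE). Triangles lie to the left of both circles for 13 of the 19 vascular and 11 of the 19 TEAD target genes plotted, filled triangles lie close to filled circles for most, and SE lines are wide.

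By list median, extracellular matrix and integrin genes came after the vascular and TEAD target genes, level with the immediate early genes. Of 43 tested, 35 were lower with DOX (52.8% of all genes). In 15 both DOX arrays were below both untreated arrays and in 2 above, against 16.4% and 18.6% of all genes. The median was -0.29, or -0.17 within the slide, where 30 were lower (44.0% of all genes), and -0.11 without untreated replicate 1. Thbs1, which encodes thrombospondin 1, an activator of latent TGF-beta, was at -3.66 and -3.58 in FLK1+ cells, at 2.97 and 2.46 in untreated culture and at 1.56 and 1.86 with DOX. It differed by -1.0 with DOX (SE 0.79, within the slide -0.60). Mmp9, a gelatinase gene, was at -0.62 and -0.84 untreated and at -2.24 and -1.18 with DOX (-0.98, SE 0.62). The fibronectin receptor gene Itga5 was at 2.24 and 1.83 untreated and at 0.68 and 1.45 with DOX (-0.97, SE 0.83), while its ligand gene Fn1 was at 8.97 and 8.73 untreated and at 8.66 and 8.76 with DOX.

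In the TGF-beta and BMP pathway 31 of 46 genes were lower (52.8% of all genes). In 14 both DOX arrays were below and in 4 above, against 16.4% and 18.6% of all genes. The median was -0.28 over the 4 arrays, -0.06 within the slide and 0.01 without untreated replicate 1. The type 2 receptor gene Tgfbr2 was at 1.99 and 1.09 untreated and at 0.72 and 0.88 with DOX (-0.74, SE 0.49, second probe -0.15). Among targets of BMP, Id1 was at 4.63 and 5.02 untreated and at 5.59 and 5.25 with DOX, both DOX arrays above, and Id3 differed by 0.01.

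Genes of the cytokine pathways of the medium had no common shift within the slide. The VEGF, IL-6 and STAT list had a median of -0.28 over 27 genes, 0.00 within the slide and 0.01 without untreated replicate 1. Placental growth factor, Pgf, a ligand of the VEGF receptor FLT1, was at 2.58 and 1.55 untreated and at 0.62 and 1.01 with DOX (-1.25, SE 0.83). Socs3, the feedback gene of IL-6 signalling, was at 2.76 and 1.64 untreated and at 2.39 and 1.58 with DOX, and its groups overlapped. Kdr, which encodes FLK1, was at 1.91 and 2.90 untreated and at 4.60 and 3.22 with DOX (1.5, SE 0.81). Each DOX array was above each untreated array, but the second Kdr probe gave a difference of 0.13.

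Smooth muscle genes had a median of -0.03 over 20 genes, the same as within the slide. Its direction turned with the arrays used, being 0.15 without untreated replicate 1 and -0.21 without untreated replicate 2. When DOX replicate 1 was left out it was -0.20, and when DOX replicate 2 was, 0.09. In 4 each DOX array was below each untreated array (16.4% of all genes) and in 1 above (18.6%). The adhesion protein genes Actn1 and Vcl were among the 4, with differences of -0.65 and -0.42 and of -0.33 and -0.36 within the slide. Levels ranged widely, and the smooth muscle myosin gene Myh11 was above background on 1 array of each group only. Acta2, which encodes smooth muscle actin, was at 1.45 and 1.08 in FLK1+ cells, at 5.24 and 4.96 in untreated culture and at 5.36 and 4.93 with DOX. Tagln, another contractile gene, was at 9.24 and 8.42 untreated and at 9.29 and 8.39 with DOX. For both, the DOX and untreated arrays of the shared slide differed by -0.03, and all 4 lay above FLK1+ cells.

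Genes that set blood and endothelial fate had medians near that of all genes. Over 24 hematopoietic transcription factor genes the median was -0.16, and 0.02 within the slide, with 6 having both DOX arrays below and 2 above (16.4% and 18.6% of all genes). Runx1, needed for the step from hemogenic endothelium to blood, was at 1.63 and 1.45 untreated and at 1.57 and 1.51 with DOX, and its second probe differed by -0.49. Tal1, a factor of the hemangioblast, was at 2.01 and 1.93 untreated and at 1.64 and 1.99 with DOX. Hoxb4 differed by 0.14, Bmi1 by -0.62 and Gfi1 by -0.85, all with overlapping groups. Myb, a factor of definitive progenitors, was at -2.0 and -2.27 untreated and at -3.87 and -2.37 with DOX, the low value being DOX replicate 1. Over 26 endothelial genes the median was -0.01, or 0.02 within the slide. Cdh5, which encodes VE-cadherin, differed by 0.16, and Tek, which encodes TIE2, by -0.54, both with overlapping groups.

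Early mesoderm genes had a median near that of all genes. Both DOX arrays lay above both untreated arrays for 7 of 27 genes, against 18.6% of all genes, and below for 1. The median was 0.10, and 0.13 within the slide, where 8 of 27 were lower (44.0% of all genes), and with a slide block it was 0.01. Mesp1, a gene of cardiac and blood mesoderm, was at 1.57 and 0.95 untreated and at 1.89 and 1.61 with DOX (0.49, SE 1.15). Tbx6 was at -2.59 and -2.0 untreated and at -1.11 and -1.88 with DOX (0.81, SE 0.55), and Evx1 at 4.0 and 3.87 untreated and at 4.41 and 4.17 with DOX. Pluripotency genes had a median of -0.01 over 17 genes and of 0.17 within the slide. Pou5f1 was at 1.99 and 1.21 untreated and at 2.1 and 1.5 with DOX, with overlapping groups.

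The remaining cell state lists had medians between -0.26 and -0.12 over the 4 arrays and near 0 within the slide. Cell cycle genes had a median of -0.12 over 30 genes and of 0.06 within the slide, with 4 genes below and 3 above on both DOX arrays (16.4% and 18.6% of all genes). Mki67 was at 5.75 and 5.39 untreated and at 4.96 and 5.38 with DOX. Medians were -0.26 over 24 cell cycle inhibitor and p53 target genes, -0.23 over 27 stress and unfolded protein response genes and -0.26 over 13 interferon response genes, and within the slide they were 0.02, -0.03 and 0.02. Cdkn1a, the p21 gene, was at 4.21 and 3.37 untreated and at 4.46 and 3.42 with DOX, and its second probe differed by -0.23. Gbp3, an interferon-induced GTPase gene, was at 1.62 and 0.78 untreated and at -0.40 and 0.51 with DOX (-1.14, SE 0.66). All of these lists moved towards 0 without untreated replicate 1, to between -0.01 and 0.08.

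**Figure D4:**
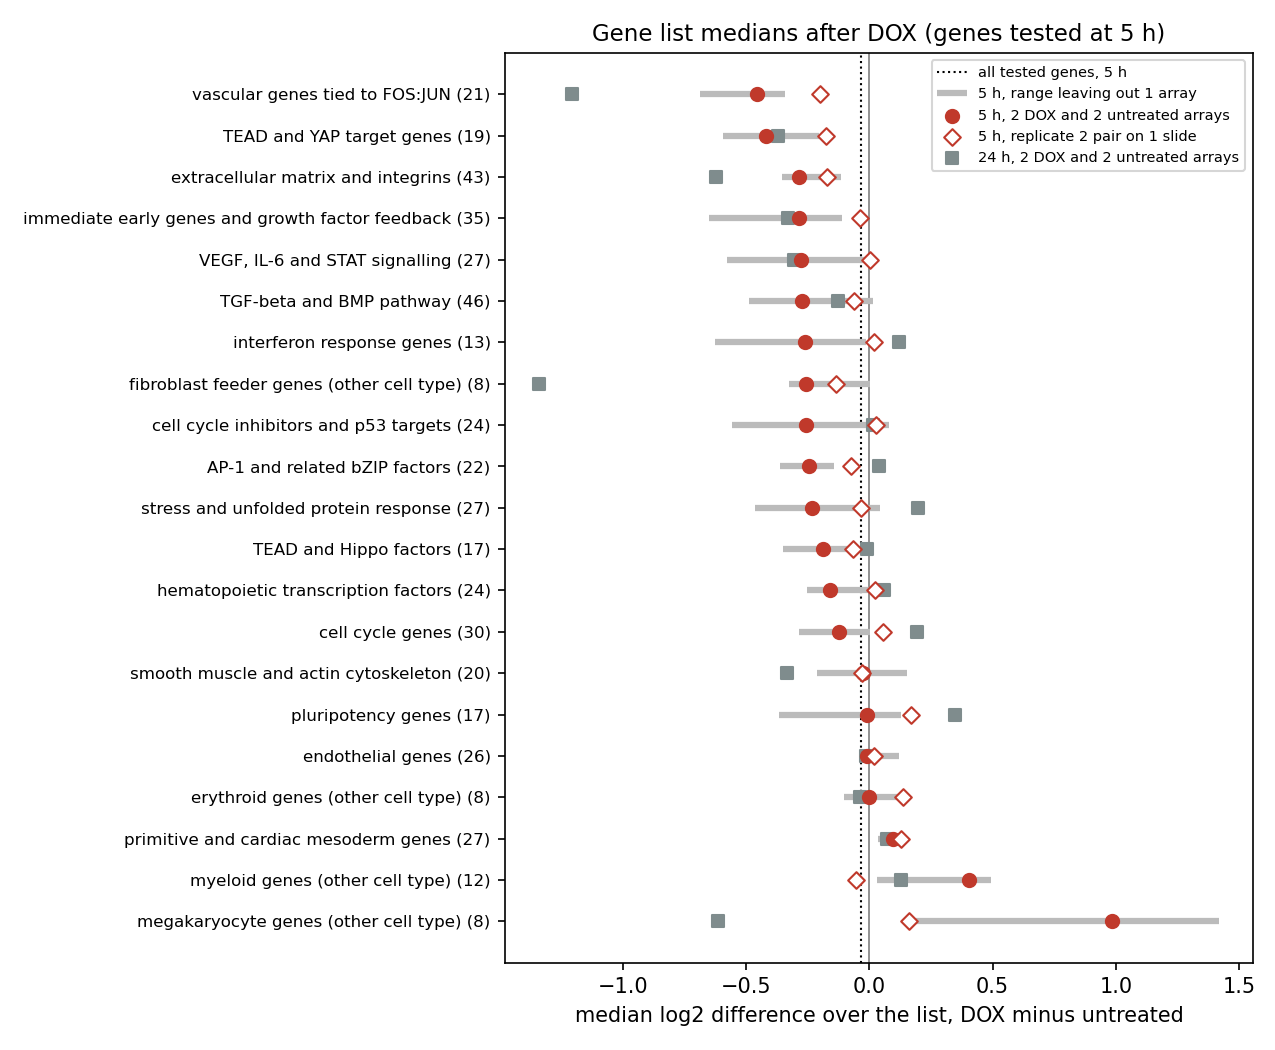
Median log2 difference (DOX minus untreated) of 21 gene lists, with the number of genes tested at 5 h in brackets (red circles, all 4 arrays of the 5 h culture; open diamonds, the replicate 2 arrays on their shared slide; grey bars, range of the 5 h median when 1 array is left out; grey squares, 24 h; dotted line, all tested genes at 5 h). Vascular and TEAD target genes lie lowest at 5 h, at -0.46 and -0.42, and both remain below 0 within the slide and under each left-out array. The same holds for the matrix and integrin, immediate early, AP-1, and TEAD and Hippo factor lists.

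Markers of other cell types were checked, since complete cultures were taken. Of 13 fibroblast feeder markers on the array, 8 were tested and 5 of these were lower with DOX, with a median of -0.26 and of -0.14 within the slide. The log2 of their summed level was 3.93 and 3.85 untreated and 3.51 and 3.66 with DOX, and the defining markers Lum, Postn and Fap were above background on no array. Col1a1, Col1a2 and Col3a1 stand in the feeder and matrix lists, and Col1a1 in the vascular list as well. Dcn was above background on 1 array of each group. Loxl1 was at 0.92 and 1.06 untreated and at -0.26 and 0.70 with DOX. The part of feeder cells in the vascular and matrix values was not tested. Of 18 myeloid markers on the array 5 were above background on no array, Spi1 and Lyz2 among them, and the log2 summed level was 6.66 and 7.02 untreated and 7.18 and 7.00 with DOX. Elane, a neutrophil protease gene, was one of the 2 list genes higher by the unadjusted measure. It was at -1.87 and 0.00 untreated and at 1.27 and 0.30 with DOX (1.73, SE 0.77), and within the slide it differed by 0.30. Of 11 megakaryocyte markers, Pf4 and Ppbp were above background on no array, and the other such gene, Gp1bb, a platelet receptor subunit, was at -5.62 and -3.46 untreated and at -2.71 and -3.34 with DOX (1.52, SE 0.62, within the slide 0.12). The megakaryocyte list had a median of 0.98 over 8 genes, all of them with a mean level below 0, and of 0.16 within the slide and 0.19 without untreated replicate 1. Erythroid genes had a median of 0.00 over 8 genes, and Klf1 was above background on no array.

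Among genes with a symbol, 0.111% were lower (16 genes) and 0.740% higher by the unadjusted measure, with both DOX arrays on one side and a 2-fold difference within the slide as well. Of the 12 with the largest downward differences, 11 were above background on both untreated and on no DOX array, so that lower bounds are given. Disp2, a dispatched family gene, was at -2.10 and -2.29 untreated and at -6.71 and -6.58 with DOX, at least 5.36-fold lower. Its limma adjusted p was 0.923, although both arrays of each group lay close together. The others were Tac4 (at least 4.02-fold lower), the histone genes H2al2b (5.08) and H2bc23 (2.66), the thyrotropin receptor gene Tshr (3.1), the potassium channel subunit gene Kcnmb3 (3.17), Cbln3 (2.42), 1700030C10Rik (4.0), Nyx (3.09), the anaphase-promoting complex gene Anapc10 (3.53) and Macc1 (2.55). A second Tshr probe differed by -0.21. Several of these genes were high mainly on 1 untreated array. Without untreated replicate 2 the log2 difference of Tac4 went from -3.85 to -1.84, and those of H2al2b, Tshr, 1700030C10Rik and Nyx came to -1.92, -1.68, -1.46 and -1.46. Such differences use DOX signals that were not above background, and bounds were not computed with an array left out. Tac4 was at -4.62 on untreated replicate 1, between the lowest well-measured signals of the DOX arrays (-4.71 and -4.52). Kcnmb3 was higher on untreated replicate 1 and differed by -1.69 without it. The remaining one, Ogt, which encodes the enzyme that adds O-linked N-acetylglucosamine to proteins, was at 1.33 and 6.25 untreated and at 0.23 and 0.66 with DOX, high on untreated replicate 2 alone, and without that array it differed by -0.89. Its second probe differed by -0.25.

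Of the 12 genes with the largest upward differences, 11 were not above background on any untreated array, and 0 were on both. They were the olfactory receptor genes Olfr782 (at least 12.2-fold higher), Olfr1507 (4.02) and Olfr1417, the meiotic gene Hormad1 (16.5), Ccdc60 (9.56), the adhesion gene Hepacam (7.14), the sperm head gene Cylc1 (7.58), the neuronal factor gene Atoh1 (6.02), the epidermal gene Flg2 (9.97), the oocyte gene Oog4 (8.86), Zxda (4.40) and the hair keratin gene Krt33b (3.11), each as a lower bound. Olfr1417, above background on 1 untreated array, was at -5.70 and -4.59 untreated and at -1.12 and -0.26 with DOX (log2 difference 4.45, SE 0.85, limma adjusted p = 0.260). In all 12 DOX replicate 2 was the higher DOX array. Without it the log2 differences ran from 2.57 (Zxda) to 4.36 (Hepacam), with Atoh1 at 2.79, and without DOX replicate 1 from 4.07 (Krt33b) to 7.25 (Olfr782), with Atoh1 at 6.21. Most untreated signals in these differences were not above background, and bounds were not computed with an array left out. On DOX replicate 1 Atoh1 and Zxda were at -4.32 and -4.41. The lowest well-measured signals of the untreated arrays were not far below, at -5.02 and -5.37. Second probes of Ccdc60, Olfr782 and Hormad1 differed by 0.04, 0.66 and 1.31, against 4.74, 5.50 and 5.44 for the probes above. Most of these genes are known from tissues other than blast culture, and for 1 of these 12 a 24 h test was possible.

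The 24 h culture shares no array with the 5 h comparison, but it shares slides with DOX replicate 1 and with the replicate 2 arrays. There 1 gene was called higher (0.00417% of 23975) and 1 lower (0.00417%), and by the unadjusted measure 133 were higher and 252 lower (0.555% and 1.05%). Of the vascular genes, 18 of 21 had both DOX arrays below both untreated arrays at 24 h (9.61% of all genes did), 12 of them the same genes as at 5 h, and the median was -1.21 against -0.46. The share of all genes that lay below at both times was not counted, so that such overlaps have no baseline here. The matrix and integrin list had a median of -0.62 at 24 h, with 22 of 41 below on both DOX arrays, and 11 genes did so at both times. TEAD and YAP target genes had a median of -0.37 at 24 h against -0.42 at 5 h, and 9 of 19 had lower levels on both DOX arrays at 24 h against 11 at 5 h, 7 of them at both times. Axl differed by -0.69 at 5 h (within the slide -0.38) and by -2.31 (SE 0.72) at 24 h, with levels of 2.84 and 3.38 untreated and 0.06 and 1.53 with DOX at the later time. Wt1 and Atf3 differed by -1.09 and -1.21 at 5 h and by -0.06 and -0.61 at 24 h. Tnc, a matrix gene, was at -3.86 and -3.59 untreated and at -2.69 and -3.76 with DOX at 5 h (0.50, second probe -0.44), and differed by -2.28 at 24 h. Cell cycle genes had both DOX arrays above for 13 of 30 genes at 24 h (18.9% of all genes) and for 3 at 5 h (18.6%). The feeder list had a median of -1.34 at 24 h, with 5 of 8 markers below on both DOX arrays, and its part in the 24 h values was not tested. In a test of the difference between both times, 0 of 25395 genes were called in either direction (limma), with 419 at an unadjusted p under 0.05 and a lowest adjusted p of 0.496, so that no gene can be said to respond at one time and not at the other.

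**Figure D5:**
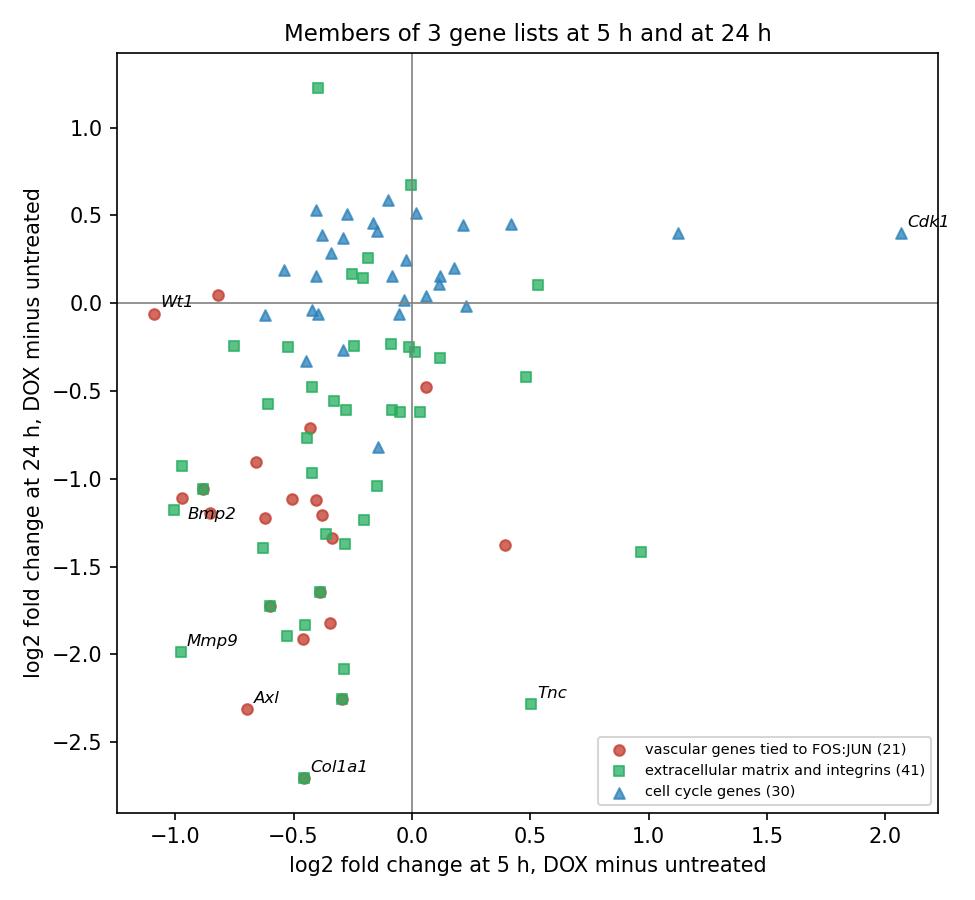
Log2 fold change with DOX at 5 h (horizontal) and at 24 h (vertical) of the members of 3 gene lists that were tested at both times (circles, vascular; squares, matrix and integrins; triangles, cell cycle). Vascular and matrix genes lie mostly where both changes are negative and reach -2.71 at 24 h for Col1a1 against -0.46 at 5 h, while most cell cycle genes lie above 0 at 24 h and on either side of 0 at 5 h.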

How the data were processed

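RNA of the 4 samples was labelled with Cy3 and hybridized to one-colour Agilent mouse arrays. The authors deposited 1 Feature Extraction file per array, in which the processed signal of each spot is an intensity, from which the scanner software (version 10.7.1.1 per the labels, 10.7.3.1 per the file headers) had removed background and spatial trend, not scaled between arrays. A log2 table normalized between arrays by the authors with limma was also deposited, and its values were used as an alternative. No columns of the authors' own comparisons were used.

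Control spots were removed. A flagged spot was removed only where its probe had an unflagged spot on that array, and was otherwise kept. Spots of 1 probe were averaged, which left 55681 probes for 37208 genes or transcripts. Of these, 20145 had a symbol through RefSeq. Older symbols were updated where 1 synonym matched, and 6 list genes had no probe. A gene was read by its brightest probe, on average over all 27 arrays. The log2 signal minus each array's 75th percentile is the level. Genes entered the test if every array of the untreated group, or every array of the DOX group, had the probe well above background. Lower bounds compare the bright group with, per array of the dim group, the higher of the lowest well-measured signal and the probe's own.

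limma 3.58.1 in R 4.3.3 (lmFit, eBayes) fitted the means of 13 groups over all 27 arrays. Residual degrees of freedom were 14 and prior ones 4.33. All tests were two-sided. The difference of the DOX effects at 24 h and 5 h was an interaction contrast. Samples were grouped by their labels. Alternatives were normexp (offset 50), quantile and median scaling, the authors' values, other filters and thresholds, the mean of all probes, blocks for replicate and slide, a trend, array weights, the 4 arrays alone, and leaving out each array. Where that leaves 1 array in a group, its variance is taken from the rest. The fit was tested on simulated data. Named genes were every called gene, the 12 largest falls and rises that met the stated rule, and members of 21 lists. The members and lists were chosen with earlier results of these data known. Result files were made with data.table (1.17.8), pandas 2.3.3, numpy 2.4.6 and scipy in Python 3.11.15, and figures with matplotlib 3.10.9. Replicate numbers at 5 h did not pair the samples, and no depth applies to arrays, whose number limits the precision.
Some genes of these lists are counted in the list values but not reported by name here.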

Additional observations from a re-analysis of the deposited data

How the results depend on the processing

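The counts of called genes changed with most settings. With 2 arrays a group, replicate and slide cannot be told apart for untreated replicate 1. Against 1 gene called higher with DOX, 0 were called with normexp, without the filter, with detection in both groups, with the slide as a fixed block, with a mean-variance trend and with the 4 arrays alone. There were 2 with quantile normalization, the authors' values, the mean of all probes, the replicate block, the slide as a random block and the threshold of an adjusted p under 0.1 and 1.5-fold, and 4 with array weights. Genes called lower were 0, and 3 with the slide as a fixed block. At an unadjusted p, 5.12% of genes tested were higher, and the share was 1.86% (normexp), 2.52% (quantile), 2.54% (median scaling), 1.84% (authors' values), 2.08% (detection in both groups), 0.433% (slide as a fixed block) and 1.91% (as a random block). Lower were 0.189%, and 0.0841% (normexp), 0.694% (quantile), 1.55% (median scaling), 0.0768% (detection in both groups), 0.341% (array weights) and 0.362% (the 4 arrays alone). Median scaling moved the median of all genes to -0.68, and the list medians minus that shift were -0.42 for vascular and -0.38 for TEAD target genes. Leaving out 1 array gave 0 to 72 genes called higher, 0 to 6 lower, 0.411% to 11.7% higher and 0.094% to 0.828% lower at an unadjusted p, and 0 to 17 genes whose DOX effect differed between both times. The last count was 1 with quantile normalization and 2 with the slide as a fixed block or array weights. The Hprt difference kept its direction and passed no adjusted threshold in the settings tried, between 0.76 and 1.82, with 1.79 within the shared slide. Vascular and TEAD target medians were below 0 in every setting tried, and within the slide they were -0.20 and -0.18. Replicates with the same number did not deviate together at 5 h (r = -0.11 between their deviations), and the replicate block gave 2 higher and 0 lower calls. Crossing the numbers, chosen after seeing the data, gave 2 higher and 0 lower. Depth has no counterpart here. Genes near background have bounds only.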

Other observations

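Some genes owed their values to 1 array. Tpst2, a tyrosine sulfotransferase gene, was at 2.17 and 6.14 untreated and at 1.91 and 2.26 with DOX. Tpst2 and Ogt were called lower with the slide as a fixed block (limma adjusted p = 0.000975 for each), a fit in which untreated replicate 1, alone on its slide, carries no weight. The third such call was a long intergenic transcript without a symbol.

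On untreated replicate 1, the array alone on its slide, several regulators read far below the other arrays. Cdk1, the mitotic kinase gene, was at -1.64 there and at 3.52, 2.24 and 3.77 on untreated replicate 2 and the DOX arrays. Zfp36, an early gene that destabilizes messenger RNA, was at -6.86 against -1.92, -2.03 and -1.60, and Smad7, the feedback inhibitor of TGF-beta, at -0.97 against 2.48, 1.80 and 2.62. Another probe of Cdk1 gave a DOX difference of -0.32, against 2.07 for this one. These genes were named after their values were seen.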
